A study of Mus musculus with 8 samples.

Results

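The C-type lectin receptors of myeloid cells described here are Clec4n, Clec4d, Clec4e, Clec5a, Clec7a, Clec4a2, Clec12a and Clec10a. Their probe sets were those that the array annotation assigns to a single gene on this list, which gave 10 probe sets of 7 of the 8 genes, out of 45101 probe sets and 18194 genes. Clec12a was not analysed here. Expression was measured on 8 Affymetrix arrays, 2 technical arrays for each of 4 groups of CD11b+Gr-1+ myeloid cells from C57BL/6J mice that had or lacked Hdc, the gene of the histamine-forming enzyme histidine decarboxylase. The wild-type and HDC-KO bone marrow groups came from 3 HDC-EGFP and 3 HDC-EGFP/HDC-KO mice of 3 to 4 months, and these cells were described as HDC-expressing. The wild-type and HDC-KO colon tumor groups came from 5 mice each, aged 7 months, whose genotype labels are HDC-EGFP and HDC-EGFP/HDC-KO, although the design text names them WT and HDC-KO. These animals were given a single dose of azoxymethane, a carcinogen of the colon, and dextran sodium sulfate, an agent that damages its lining, over the next 10 days. Tumors were taken 22 to 24 weeks later and 10 to 12 of them were pooled in each group. The genotype labels thus give all 4 groups the HDC-EGFP reporter transgene, while HDC-expressing cells are named for marrow only.

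C-type lectin receptors are surface proteins with which myeloid cells recognise sugars, glycolipids and proteins of microbes and of damaged or foreign cells. Some activate the cell by pairing with the adaptors Fcer1g or Tyrobp, or through a signalling motif in their own tail, and pass the signal to the kinase Syk and the Card9, Bcl10 and Malt1 complex. Others carry an inhibitory motif that recruits phosphatases. Neutrophils, monocytes, macrophages and dendritic cells each carry a different mix of them.

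The 2 arrays of a group were technical replicates of its RNA, here called a pool, although pooling is stated for the tumor groups only. The tests therefore measure differences against array error and say nothing of the spread between mice. A log2 value under 5 was taken as background. A gene was called at a limma Benjamini-Hochberg adjusted p under 0.05 and a difference of at least 2-fold, and "rose" and "fell" are used below of called genes only. In bulk cells, fewer cells of a type and less RNA per cell cannot be told apart. Hdc, the check of the labels, had means of 13.18 in wild-type and 9.83 in HDC-KO marrow, but 13.24 in wild-type and 13.03 in HDC-KO tumor cells, so that the last pool went against its label and is called the pool labelled HDC-KO. Of the sort markers, Itgam (CD11b) had pool means of 11.25 to 12.38, and Gr-1 (Ly6g) was not analysed here. The neutrophil gene S100a8 lay at 15.12 to 15.18 in every pool. The tumor and marrow pools also differed in sex-linked genes, which were looked at after their values were seen. Eif2s3y, a Y-linked gene, had means of 2.37 to 2.49 in marrow and 11.03 to 11.09 in tumor, and Xist, which is transcribed from the inactive X chromosome, 12.39 to 12.46 in marrow and 2.88 to 3.26 in tumor. Tissue, age, carcinogen treatment, the HDC-expressing gate and this sex-linked pattern therefore cannot be told apart in any tumor against marrow comparison.

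The genes of 7 of the 8 receptors are clustered near other lectin genes. In the RefSeq gene order of GRCm38.p6, Clec4n, Clec4d and Clec4e follow each other without another protein-coding gene between them, Clec4a2 lies between Clec4b1 and Clec4b2, Clec7a lies between Clec1a and Olr1, and Clec12a between Clec2m and Clec12b. Clec10a is next to its close relative Mgl2, while Clec5a has no lectin gene as a neighbour. The 250 bases before the transcription start are shown for 4 genes. They are Clec4d and Clec4e, which are neighbours with different patterns in marrow, and Clec4a2 and Clec5a, which both fell in the pool labelled HDC-KO tumor. They are RefSeq sequences of GRCm38.p6 at chr6:123261857-123262106 (plus strand), chr6:123289872-123290121 (minus strand), chr6:123122440-123122689 (plus strand) and chr6:40585806-40586055 (minus strand), each written 5′ to 3′ on the strand of its gene. Capitals mark a match to a C/EBP motif.
Clec4d: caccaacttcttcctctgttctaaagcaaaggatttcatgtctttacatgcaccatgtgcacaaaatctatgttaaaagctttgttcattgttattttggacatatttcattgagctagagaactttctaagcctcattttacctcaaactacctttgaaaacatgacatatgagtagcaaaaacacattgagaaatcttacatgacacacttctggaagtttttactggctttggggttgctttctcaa
Clec4e: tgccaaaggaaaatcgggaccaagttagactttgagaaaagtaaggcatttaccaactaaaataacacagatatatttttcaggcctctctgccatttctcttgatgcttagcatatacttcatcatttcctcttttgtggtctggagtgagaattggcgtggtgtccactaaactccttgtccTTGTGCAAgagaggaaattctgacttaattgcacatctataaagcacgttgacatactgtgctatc
Clec4a2: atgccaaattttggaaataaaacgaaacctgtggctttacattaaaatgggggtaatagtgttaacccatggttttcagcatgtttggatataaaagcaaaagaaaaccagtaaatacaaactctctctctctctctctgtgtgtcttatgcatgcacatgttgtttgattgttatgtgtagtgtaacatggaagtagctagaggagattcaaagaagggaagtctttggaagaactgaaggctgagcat
Clec5a: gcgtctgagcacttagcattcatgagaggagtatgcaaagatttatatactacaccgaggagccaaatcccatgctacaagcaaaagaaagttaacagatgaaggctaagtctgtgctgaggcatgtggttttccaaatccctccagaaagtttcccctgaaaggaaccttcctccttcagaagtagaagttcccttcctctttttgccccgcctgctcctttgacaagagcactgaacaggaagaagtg

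These windows were searched on both strands for the PU.1 motif GAGGAAGT, the C/EBP motif TTGCNNAA and the kappaB consensus, which do not overlap one another in the 4 windows. Clec4e held the C/EBP motif, which reads TTGTGCAA on the printed strand and matches on the opposite one, with its first base at position -66 from the start. Clec4d, Clec4a2 and Clec5a held none of these letters. Among all 32851 promoter windows of this length, 2.441% held the PU.1 motif, 9.564% the C/EBP motif (3142 windows) and 7.251% the kappaB consensus. Such a match describes letters only. No window for Clec4n or Clec10a was used here.

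Among the receptors that activate through Fcer1g, Clec4n (Dectin-2, a receptor for fungal mannans) varied most. Its log2 values were 6.67 and 6.80 in wild-type marrow, 4.41 and 4.40 in HDC-KO marrow, 10.48 and 10.24 in wild-type tumor, and 10.84 and 10.80 in the pool labelled HDC-KO tumor. Both HDC-KO marrow arrays lay under log2 5, all 4 tumor arrays lay far above all 4 marrow arrays, and no arrays of different pools overlapped. The other Clec4n probe set had the same order of pools, with means of 5.79, 4.10, 9.79 and 10.50 in the same sequence of groups. On that probe set the HDC-KO marrow arrays were 3.66 and 4.55, the widest gap between technical arrays among the 10 probe sets, which came at values under background.

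Clec4d (MCL) and Clec4e (Mincle), which pair with each other and respond to mycobacterial cord factor, were well above background on every array. Clec4d lay at 13.14 and 13.15 in wild-type marrow, 13.31 and 13.27 in HDC-KO marrow, 13.20 and 13.21 in wild-type tumor, and 13.51 and 13.53 in the pool labelled HDC-KO tumor. The 4 pool means of Clec4d spanned 0.37 on the log2 scale, the smallest range among the 7 genes. Clec4e lay at 12.19 and 12.12 in wild-type marrow, 11.40 and 11.43 in HDC-KO marrow, 12.57 and 12.61 in wild-type tumor, and 12.53 and 12.42 in the pool labelled HDC-KO tumor. HDC-KO marrow was thus the lowest pool of Clec4e, apart from the other 6 arrays, and its other probe set placed it lowest too, at a mean of 9.44 against 10.30 to 11.24 in the other 3 pools.

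Clec5a (MDL-1) activates through Tyrobp. It lay at 11.24 and 11.22 in wild-type marrow, 11.51 and 11.56 in HDC-KO marrow, 11.13 and 11.13 in wild-type tumor, and 9.40 and 9.41 in the pool labelled HDC-KO tumor. The last pool was the low one, with 1.72 between it and the next. Clec7a (Dectin-1), the beta-glucan receptor, which signals through its own tail, had the opposite order. Its values were 12.05 and 12.10 in wild-type marrow, 11.95 and 11.97 in HDC-KO marrow, 12.80 and 12.79 in wild-type tumor, and 13.51 and 13.36 in the pool labelled HDC-KO tumor. Tumor arrays were higher than all marrow arrays for Clec7a, and its marrow pools differed by 0.11.

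Clec4a2 (DCIR) is an inhibitory receptor whose tail recruits phosphatases. Its values were 12.53 and 12.47 in wild-type marrow, 12.55 and 12.63 in HDC-KO marrow, 12.35 and 12.36 in wild-type tumor, and 11.25 and 11.23 in the pool labelled HDC-KO tumor. As for Clec5a, the pool labelled HDC-KO tumor was apart below the other 3. Clec10a (MGL1), a galactose-binding receptor of macrophages and dendritic cells, was at 2.93 and 2.32 in wild-type marrow and 2.79 and 2.72 in HDC-KO marrow, all under background. In tumor it was at 6.06 and 5.81 in the wild-type pool and 6.68 and 6.91 in the pool labelled HDC-KO, above background on all 4 arrays. In the 4 comparisons, some differences missed an adjusted p under 0.05. Between the marrow genotypes these were the differences of Clec4a2, Clec4d, Clec7a and Clec10a. Between wild-type tumor and marrow they were those of Clec4a2, Clec4d and Clec5a, and between the tumor pools that of Clec4e. A missed adjusted p leaves the order of these pools unsettled and does not show that they are equal. The Clec4a2 arrays of wild-type marrow did not overlap those of wild-type tumor, for example, while the Clec10a arrays of the marrow genotypes overlapped.

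**Figure D1:**
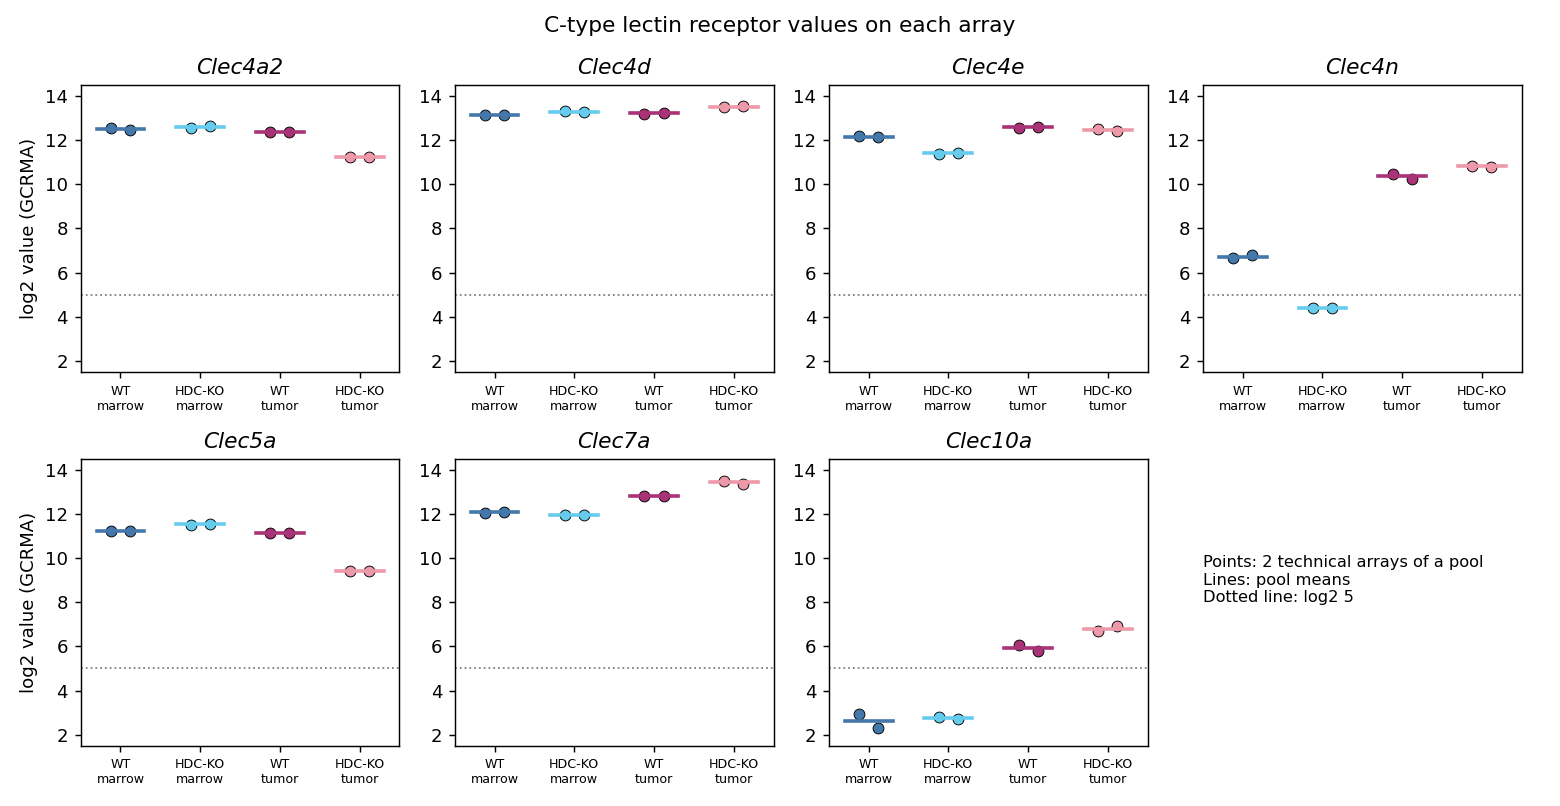
Log2 values (vertical axis, GCRMA) of the probe set with the higher mean of each of 7 receptor genes in the 4 groups (horizontal axis); points are the 2 technical arrays of a pool, lines are pool means and the dotted line is log2 5. Clec4n and Clec10a separate tumor from marrow, Clec4a2 and Clec5a are lowest in the pool labelled HDC-KO tumor, and Clec4d spans 0.37.

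The comparison of HDC-KO with wild-type marrow set a single pool against a single pool. Loss of Hdc and other differences between the mice of these pools cannot be told apart in it. Clec4n fell and was the 1 receptor called of the 7 tested, which were all above background on at least 2 arrays, Clec10a through its tumor arrays alone. Its log2 difference was -2.33 ± 0.09 (SE, n = 2 technical arrays per pool), and with the HDC-KO mean raised to background it was at least 3.32-fold lower (limma, adjusted p = 2.49e-05). The other Clec4n probe set gave -1.68 ± 0.28 in the fit of every probe set, or at least 1.72-fold lower (limma, adjusted p = 0.00939). Clec4e was 1.68-fold lower, with a log2 difference of -0.75 ± 0.06, short of the 2-fold threshold (limma, adjusted p = 0.000539), and -0.85 ± 0.11 on its other probe set.

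The other 5 receptors differed little between the marrow pools. Clec5a was higher by 0.31 ± 0.05, under 2-fold (limma, adjusted p = 0.00679). The differences of Clec4d at 0.14, Clec4a2 at 0.09, Clec7a at -0.11 and Clec10a at 0.13 did not pass the adjusted p. The median difference of the 7 receptors was 0.09, against 0.00 over all 8174 genes tested. The 1 of 7 called stands beside 3.82% of all genes called, or 1.80% called higher and 2.02% lower. Of the 11 monocyte and macrophage markers measured in this comparison 2 rose, C1qb 2.19-fold and Mertk, and 2 fell, Adgre1 3.30-fold and Cd14 2.18-fold. The summed level of the list was log2 11.60 to 11.63 on the wild-type and 11.86 to 11.87 on the HDC-KO arrays. Mertk, Cx3cr1, C1qa and C1qc were under background in both. The 5 tested markers of T, NK and B cells moved apart, with Cd3d 28.8-fold and Cd79b 2.57-fold higher and Nkg7 2.08-fold lower in HDC-KO marrow, while Cd3e, Cd3g and Cd79a were under background in both. The summed level of that list was log2 9.69 to 10.10 on the wild-type and 12.59 to 12.61 on the HDC-KO arrays. Cd3d alone had means of 7.63 and 12.48. The part of these cells in the Clec4n difference was not tested.

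In tumor, the comparison of the pool labelled HDC-KO with the wild-type pool showed a lower Clec5a and Clec4a2. Clec5a fell 3.305-fold, a log2 difference of -1.72 ± 0.05 (SE over 2 arrays a pool; limma, adjusted p = 1.24e-06). Clec4a2 fell 2.16-fold, by -1.11 ± 0.05 (limma, adjusted p = 8.49e-06), and its other probe set gave -1.36 ± 0.05. No receptor rose. These 2 of 7 compare with 26.0% of all genes called, 15.5% higher and 10.5% lower, and so the share of receptors called in either direction lay near that of all genes.

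The other receptors were between 0.12 lower and 0.86 higher on the log2 scale in the pool labelled HDC-KO tumor. Clec10a was 1.81-fold higher, at 0.86 ± 0.21 (limma, adjusted p = 0.0093), Clec7a 1.56-fold higher, at 0.64 ± 0.06 (limma, adjusted p = 0.000172), and Clec4n 1.38-fold, at 0.46 ± 0.09 (limma, adjusted p = 0.0037), each short of 2-fold. Clec4d was higher by 0.31 ± 0.05 and Clec4e differed by -0.12 ± 0.06 (limma, adjusted p = 0.118). The median of the 7 was 0.31, against 0.03 over all genes tested.

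Marker lists of other cells and stages moved along with these receptors in tumor. All 4 primary granule genes and all 6 cell cycle genes measured were called lower in the pool labelled HDC-KO, as were Clec5a and Clec4a2. The summed primary granule level was log2 12.09 on both arrays of the wild-type and 9.08 to 9.18 in the labelled pool, where Elane and Ctsg were under background, and that of the cell cycle genes 13.56 on both against 10.81 to 10.89. Of 11 monocyte and macrophage markers 7 rose, from a summed log2 level of 15.06 to 15.07 to one of 15.74 to 15.78, and all 7 tested of 9 MHC class II and dendritic markers rose, from 12.40 to 12.46 to 14.46 to 14.49. Intestinal epithelial markers rose in 10 of 11 cases, from 12.09 to 12.12 to 14.41 to 14.46. Of 8 mature neutrophil markers limma called 0 (5 had an unadjusted p below 0.05), with sums of 16.77 to 16.80 and 16.70 to 16.72. S100a8 and S100a9, level between the pools, were the largest terms of both sums. The 5 moved in both directions, with Mmp8 at -0.81 and Mmp9 at -0.94, and Csf3r at 0.87, Il1r2 at 0.53 and Trem1 at 0.29, each short of 2-fold. Of 5 tested T, NK and B cell markers 3 rose, among them Cd79b 14.15-fold and Ms4a1 8.34-fold, and Cd3d fell 3.38-fold. The summed level went from 12.09 to 12.16 down to 11.58 on both arrays, while Cd3d alone went from 12.03 to 10.28. The 5 stromal markers were under background in all 4 pools. The part of these cells in the receptor differences was not tested.

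Between tissues in wild-type mice, Clec4n and Clec10a rose in tumor and no receptor fell. Clec4n rose 12.4-fold, a log2 difference of 3.63 ± 0.09 (SE over 2 arrays a pool; limma, adjusted p = 8.54e-07), and by 4.00 ± 0.28 on its other probe set. Clec10a rose by 3.31 ± 0.21 (limma, adjusted p = 4.18e-05), which with the marrow mean raised to background was at least 1.91-fold. These 2 of 7 compare with 16.4% of all genes called, 11.6% higher and 4.81% lower. With every value under log2 5 raised to 5, the Clec10a difference was 0.93 ± 0.11 and short of 2-fold.

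Clec7a was 1.65-fold higher in wild-type tumor, at 0.72 ± 0.06 (limma, adjusted p = 0.000189), and Clec4e 1.35-fold, at 0.43 ± 0.06 (limma, adjusted p = 0.00136), while its other probe set gave 0.95 ± 0.11. Clec4d at 0.06, Clec5a at -0.10 and Clec4a2 at -0.15 did not pass the adjusted p. For Clec4a2 the probe sets differed in sign, with 0.32 ± 0.05 on the other one (limma, adjusted p = 0.00289). The median of the 7 receptors was 0.43, against -0.03 over all genes tested. The 11 monocyte and macrophage markers measured were called higher as well, from a summed log2 level of 11.60 to 11.63 in marrow to 15.06 to 15.07 in tumor. The summed MHC class II and dendritic level went from 7.92 to 7.94 in marrow to 12.40 to 12.46 in tumor, with the 7 tested of 9 markers called higher. Epithelial markers, all 11 called higher, had sums of 6.49 to 6.50 and 12.09 to 12.12. All 11 epithelial, 5 of the 7 dendritic and 4 of the 11 macrophage markers were under background in both marrow pools and were tested only because of their tumor values, as was Clec10a, so these counts were partly fixed by the filter. The 4 primary granule genes fell, from a summed log2 level of 14.53 to 14.58 to one of 12.09. Of 5 T, NK and B cell markers tested 2 rose, among them Cd3d 21.15-fold, and 1 fell. The sums of these markers were 9.69 to 10.10 and 12.09 to 12.16, where Cd3d alone had means of 7.63 and 12.03. Their part in the receptor differences was not tested.

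The pool labelled HDC-KO tumor, whose Hdc level went against that label, was set against HDC-KO marrow. In this comparison 6 of the 7 receptors were called, 4 higher and 2 lower in tumor. The 4 include Clec10a, which was tested only because of its tumor values, so this count was partly fixed by the filter. Clec4n rose by 6.42 ± 0.09 (SE over 2 arrays a pool; limma, adjusted p = 4.53e-08), at least 56.5-fold with the marrow mean raised to background. Clec10a rose by 4.04 ± 0.21, at least 3.465-fold, Clec7a 2.775-fold, by 1.47 ± 0.06, and Clec4e 2.09-fold, by 1.06 ± 0.06. Clec5a fell 4.38-fold, by -2.13 ± 0.05 (limma, adjusted p = 1.78e-07), and Clec4a2 fell 2.55-fold, by -1.35 ± 0.05. Clec4d was higher by 0.23 ± 0.05 (limma, adjusted p = 0.00383) and was not called.

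The background is high in this comparison, with 36.5% of all genes called, 21.1% higher and 15.4% lower. The median of the 7 receptors was 1.06, against -0.02 over all genes. The other Clec4a2 probe set gave -0.95 ± 0.05, short of 2-fold, and the other probe sets of Clec4e and Clec4n gave 1.72 ± 0.11 and 6.40 ± 0.28. Since both tissue comparisons share their pools with the genotype comparisons, the 4 sets of values are not independent of each other. The 4 primary granule and 6 cell cycle genes fell here too. The 11 macrophage, 11 epithelial and 7 tested MHC class II and dendritic markers were called higher, with the same limit from the filter as above. Their summed log2 levels in HDC-KO marrow were 11.86 to 11.87, 6.15 to 6.21 and 7.58 to 7.67, against 15.74 to 15.78, 14.41 to 14.46 and 14.46 to 14.49 in the pool labelled HDC-KO tumor. Of the 5 T, NK and B cell markers tested 3 rose, among them Ms4a1 17.2-fold, and 2 fell. Of 8 mature neutrophil markers Trem1 and Il1r2 rose 2.34-fold and 2.44-fold, Mmp8 and Mmp9 fell 2.46-fold and 2.22-fold, and 4 were not called. The sort marker Itgam fell 2.18-fold. The part of these cells in the receptor differences was not tested.

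**Figure D2:**
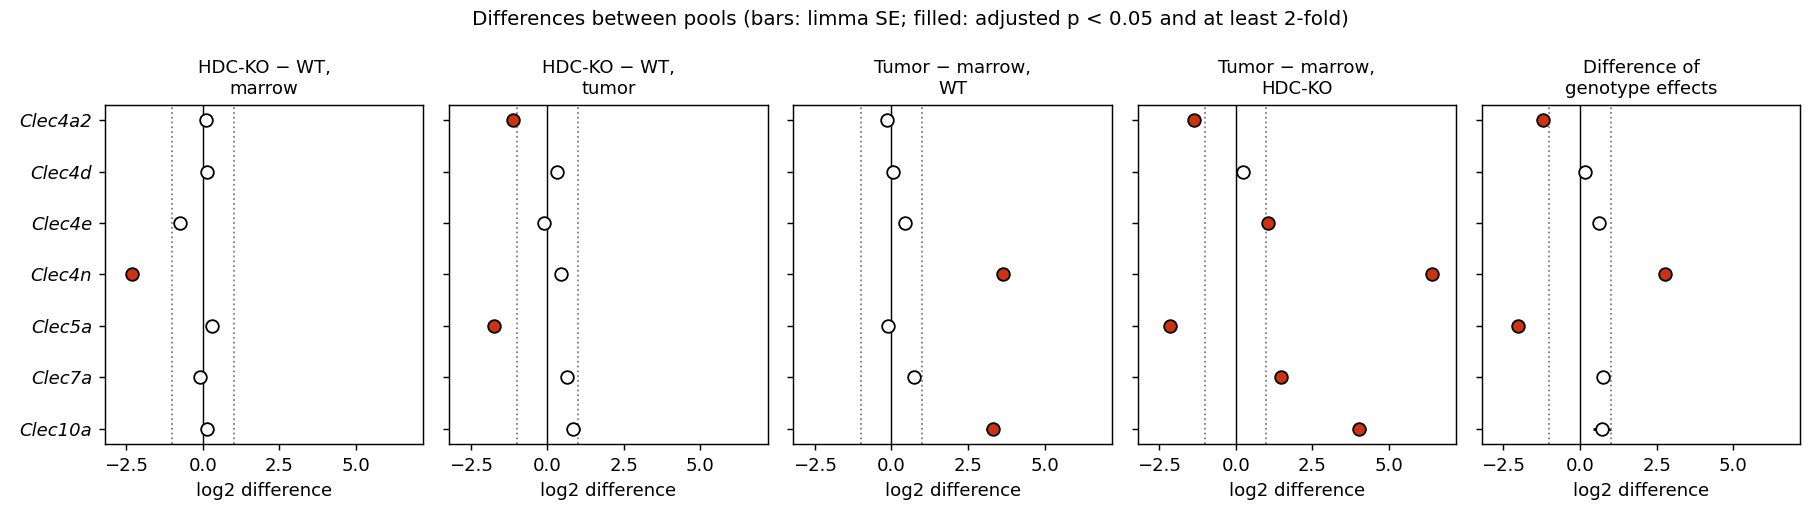
Log2 differences (horizontal axis) of the 7 receptor genes in the 4 comparisons and in the difference of genotype effects as labelled. Bars are limma SE, dotted lines are at 2-fold and filled points are called genes. Clec4n moves in each panel but the comparison of the tumor pools, where it is at 0.46. Clec5a and Clec4a2 are filled wherever the pool labelled HDC-KO tumor enters.

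The difference of the pool labelled HDC-KO from the wild-type pool in tumor, minus that difference in marrow, was tested directly. Hdc itself differed by -3.35 in marrow and by -0.21 in tumor, so the tumor term is not shown to be an effect of genotype. The tested difference was called for 3 of the 7 receptors. It was 2.79 ± 0.13 for Clec4n (SE over 2 arrays a pool; limma, adjusted p = 1.19e-05), from -2.33 in marrow to 0.46 in tumor. Since Clec4n was under background in HDC-KO marrow, that value is not exact, and with values raised to log2 5 it was 2.19 ± 0.12 (limma, adjusted p = 1.93e-05). For Clec5a it was -2.03 ± 0.07 (limma, adjusted p = 4.67e-06), from 0.31 to -1.72, and for Clec4a2 -1.20 ± 0.08 (limma, adjusted p = 3.93e-05), from 0.09 to -1.11. Clec7a at 0.75 ± 0.09 and Clec4e at 0.63 ± 0.08 passed the adjusted p and not the 2-fold threshold, and Clec10a at 0.73 ± 0.29 and Clec4d at 0.17 ± 0.07 did not pass it. Of all genes, 28.5% were called for this difference, 16.8% higher and 11.7% lower.

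The genes with 2 probe sets allowed a check within the array. In the fit of every probe set, the other probe sets of Clec4e and Clec4n gave the same sign as the first in all 5 contrasts, and that of Clec4a2 in 3 of 5. The exceptions of Clec4a2 were small differences, 0.09 against -0.09 between the marrow genotypes and -0.15 against 0.32 between wild-type tumor and marrow. Another probe set that the annotation assigns to both Clec4a2 and Clec4b1 was left out. The probe sets of Clec4d and the second of Clec4n carry an identifier for several transcripts, so a part of signal from close relatives in these values is uncertain.

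**Figure D3:**
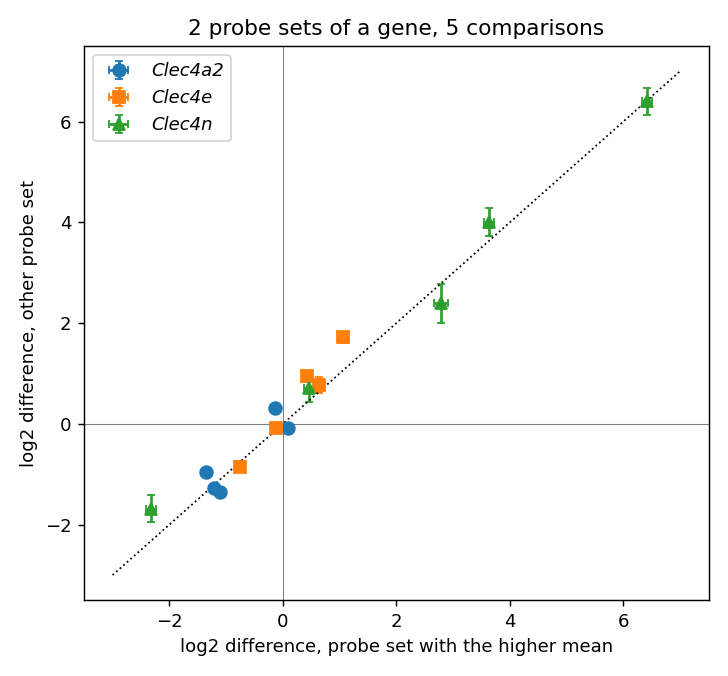
Log2 differences on the probe set with the higher mean (horizontal axis) and on the other probe set (vertical axis) of Clec4a2, Clec4e and Clec4n in the 5 contrasts, with limma SE from the fit of every probe set as bars and a dotted line of equality. The largest Clec4n difference was 6.42 on the first and 6.40 on the other, and the points near 0 that change sign are those of Clec4a2.

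The adaptors Fcer1g and Tyrobp and the kinase Syk were high in every pool and were not called in any comparison. Fcer1g, the partner of Clec4n, Clec4d and Clec4e, had means of 13.35 to 13.41, Tyrobp, the partner of Clec5a, 13.90 to 14.05, and Syk 10.69 to 10.95. Of 11 tested genes of adaptors and proximal kinases, from 14 listed, Pik3ap1 rose 8.58-fold in HDC-KO marrow, by 3.10 ± 0.05, and 17.8-fold in wild-type tumor against marrow. Between the tumor pools limma called 0 of the 11 (8 had an unadjusted p below 0.05). Pik3ap1 encodes an adaptor for phosphoinositide 3-kinase. Its means were 7.15 in wild-type marrow, 10.25 in HDC-KO marrow, 11.31 in wild-type tumor and 11.53 in the pool labelled HDC-KO tumor. Both rises thus rest on the same low wild-type marrow pool. In the pool labelled HDC-KO tumor against HDC-KO marrow Pik3ap1 rose 2.42-fold and Hcst, another adaptor of activating receptors, fell 2.64-fold. The phosphatases of inhibitory receptors, Ptpn6, Ptpn11 and Inpp5d, were not called by limma in any of the 5 contrasts, and 1 or 2 of the 3 had an unadjusted p below 0.05 in each.

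Of 13 tested genes of the Card9 complex, NF-kB and NFAT, from 18 listed, few were called. In HDC-KO marrow Nfatc2 was called higher, at 1.75 ± 0.06, which with the wild-type mean raised to background was at least 1.02-fold. In the pool labelled HDC-KO tumor Relb, an NF-kB subunit, rose 3.97-fold over wild-type tumor and Map3k14, the kinase of the noncanonical NF-kB pathway, at least 1.72-fold. Against marrow, Rel rose at least 2.12-fold in wild-type tumor, and in the pool labelled HDC-KO Ikbkb rose 2.36-fold and Relb at least 4.12-fold. Bcl10 lay at 11.54 to 11.76 and Malt1 at 9.36 to 10.25 over the 4 pools, and neither was called. Rel, Relb and Map3k14 were under background in both marrow pools and were tested only because of their tumor values. The list median was -0.04 between the marrow genotypes, or 0.00 with means raised to background, and 0.23 between the tumor pools.

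Genes that these receptors can induce, and that many other signals induce too, were far apart between tissues. Of 16 listed, 13 were tested and were called higher in both tumor against marrow comparisons, but 8 of the 13 were under background in both marrow pools and were tested only because of their tumor values, so that this count was largely fixed by the filter. The other 5 were Ptgs2, Cxcl2, Il1b, Tnf and Nlrp3, of which Il1b rose 5.73-fold, Tnf 5.52-fold and Nlrp3, the inflammasome sensor, 3.225-fold in wild-type tumor. Ptgs2, the inducible cyclooxygenase, rose 276-fold there and the chemokine gene Cxcl2 79.2-fold. Among the 8, the chemokine genes Cxcl1 and Ccl3 were at least 89.8-fold and at least 81.4-fold higher. Between the tumor pools limma called 0 of the 13 (5 had an unadjusted p below 0.05), with a median of 0.09. In HDC-KO marrow 4 of 13 were called lower, against 2.02% of all genes tested. They were Cxcl2, at least 5.46-fold, Il1b, the interleukin 1 beta gene, 2.12-fold, Ptgs2, at least 1.14-fold, and Ccl3, with both pools under background. Only Cxcl2 and Il1b stayed at least 2-fold lower with means raised to background. The part of the receptors in these differences was not tested. The list median between the marrow genotypes was -0.43, or 0.00 with means raised to background.

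Among 44 other C-type lectin genes listed, 38 were on the array and 15 reached the level for testing, so most were near background. Of the 15, Clec2h, Clec2i, Colec12 and Klrd1 were tested only because of their tumor values. Clec4a3, a relative of Clec4a2, rose 3.04-fold in the pool labelled HDC-KO tumor over wild-type tumor, by 1.60 ± 0.20 (limma, adjusted p = 0.000493), where Clec4a2 fell, and the difference between the genes was not tested. In the same comparison 9 of the 15 rose and 2 fell, with Clec2h 7.90-fold higher, Klrd1, a natural killer cell receptor, at least 3.605-fold higher, Ly75, the endocytic receptor DEC-205, 5.18-fold lower, and Olr1, the receptor of oxidised lipoprotein next to Clec7a, 4.18-fold lower. The list median was 1.48. Clec2h had means of 7.51 in wild-type tumor and 10.50 in the pool labelled HDC-KO. Intestinal epithelial markers were called higher in the same comparison for 10 of 11 genes, and their part in the Clec2h difference was not tested. Wild-type tumor differed from marrow with 8 higher and 1 lower, among them Mrc1, the macrophage mannose receptor, at least 21.0-fold, Cd302 11.5-fold, Colec12 at least 11.3-fold and Clec4a3 9.435-fold higher. In HDC-KO marrow 4 rose, of which Klrb1f reached 2.43-fold, Mrc1 at least 1.47-fold and Cd72 at least 1.41-fold, and Colec12 had both pools under background.

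**Figure D4:**
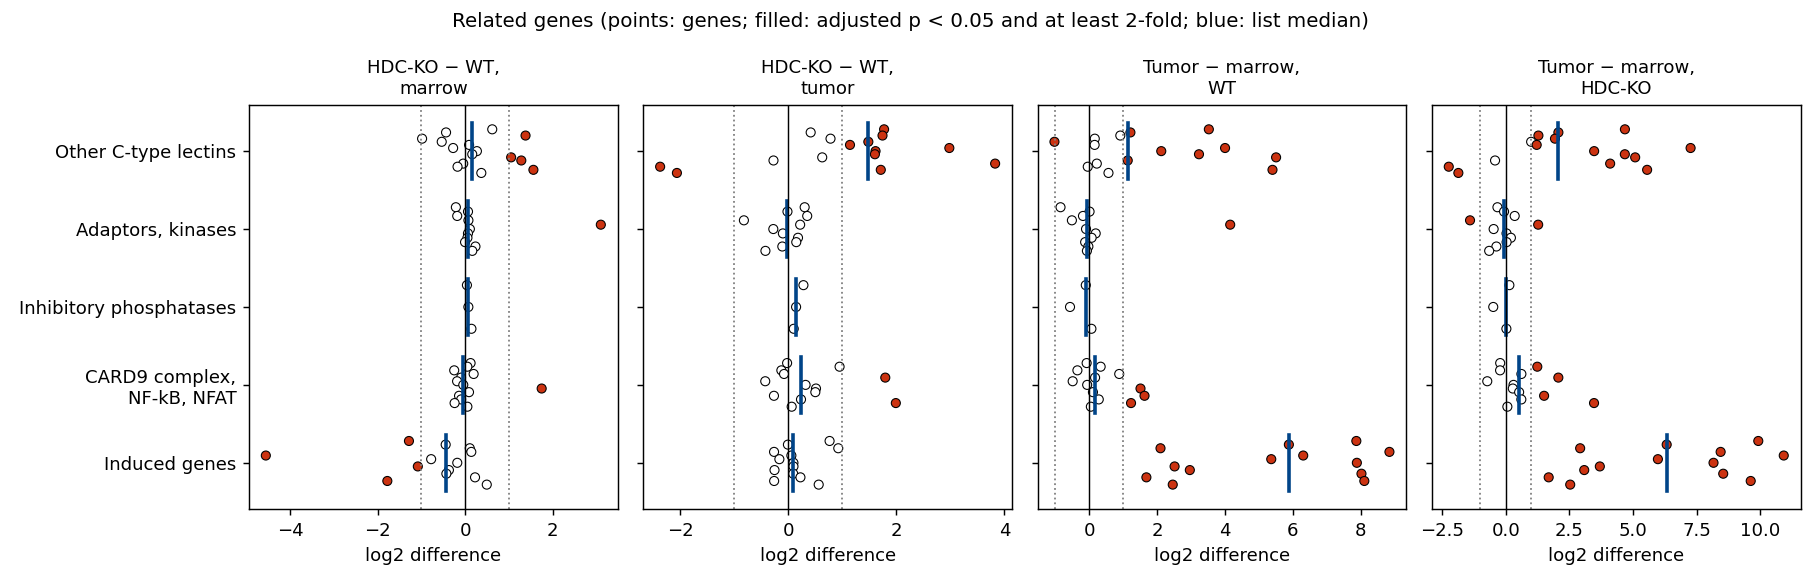
Log2 differences (horizontal axis, own scale in each panel) of tested genes in 5 lists (vertical axis) in the 4 comparisons between pools, filled where called, with list medians as blue lines and dotted lines at 2-fold. Adaptors and phosphatases lie within 2-fold apart from Pik3ap1 and, in the last panel, Hcst, and the 13 induced genes lie to the right in both tissue comparisons, 8 of them tested only because of their tumor values.

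The genes with the most similar pattern were found from the 4 pool means, each centred on its own mean, by the root mean square distance in log2 units over all genes tested. Nearest to Clec4a2 were Pram1 at 0.02, an adaptor of granulocytes, Mis18a at 0.03 and Psme3 at 0.04. Clec5a was nearest to Espl1, the protease separase of mitosis, at 0.03, Lims1 at 0.05 and Aph1b at 0.05. Clec7a was nearest to Fndc3b at 0.03, Timm17a at 0.04 and Pdia4 at 0.05.

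For Clec4d the nearest were Sirpa, an inhibitory receptor of myeloid cells, Fam50a and Supt5, each at 0.01. Clec4e had Ifitm2 at 0.07, Tlr2, a receptor of bacterial lipoproteins, at 0.09 and Slc16a3 at 0.09, which were all lowest in HDC-KO marrow. Clec4n was nearest to Igkv8-30 at 0.21, Acod1, the enzyme that makes itaconate, at 0.37 and Cd274, which encodes PD-L1, at 0.44. The distance is not scaled to the range of the pool means, which was 6.42 for Clec4n and 0.37 for Clec4d. Distances of different receptors are therefore not comparable. Clec10a was nearest to Pltp at 0.09, Maf at 0.18 and the Y-linked Uty at 0.18, and Uty was under background in both marrow pools. With 4 pools, such matches describe these pools only.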

How the data were processed

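RNA of sorted CD11b+Gr-1+ cells was hybridised as biotin-labelled cRNA. The deposited values were log2 expression values made by the authors with GCRMA, per the submitters' processing notes; the version of that tool was not stated in the labels. Depth does not apply to arrays, and their number limits the precision.

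Arrays were grouped by title. Probe sets with 1 gene symbol in the platform annotation were used, leaving out 932 with several and 9211 with none. For each gene the probe set with the highest mean was kept, and the 8174 genes that reached log2 5 on 2 or more arrays entered lmFit and eBayes of limma 3.58.1 (R 4.3.3), with 4 groups and 4 residual degrees of freedom. A second fit held 13505 probe sets. The fit was tested on simulated data. Folds use means raised to log2 5 and are bounds where 1 pool lay under it. Members and lists were chosen with earlier results of these data known. Named genes are all members, up to 4 called genes per list and contrast with the largest differences after raising, and the 3 nearest genes per member; Fcer1g, Tyrobp, Syk, Bcl10, Malt1 and genes named for their contrast with a member were picked with their values in view. The labels give array numbers no meaning across groups. Alternatives were other filters, raised values, other normalizations, other probe set rules, a replicate block, averaged arrays and each array left out.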

Additional observations from a re-analysis of the deposited data

Results flagged for a closer look

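The difference between pools by genotype label was not the same in tumor and marrow for 3 receptors. This was called by the test of the difference itself (limma, adjusted p under 0.05 and at least 2-fold). The difference, tumor minus marrow, was 2.79 on the log2 scale for Clec4n (2.19 with values raised to log2 5, since its HDC-KO marrow mean was under background), -2.03 for Clec5a and -1.20 for Clec4a2. Each uses the pool labelled HDC-KO tumor, in which Hdc was at 13.03, so the tumor term is not shown to be an effect of genotype. For Clec5a and Clec4a2 most of the difference came from tumor, at -1.72 and -1.11, against 0.31 and 0.09 in marrow. For Clec4n most came from marrow, at -2.33 against 0.46 in tumor.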

How the results depend on the processing

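The number of receptors called was the same under all alternatives run in the marrow genotype comparison (1) and the comparison of the tumor pools (2). Between the pool labelled HDC-KO tumor and HDC-KO marrow it was 6, and 5 with a filter at log2 7. In wild-type tumor against marrow it was 2, and 1 with a filter at log2 7, which leaves Clec10a untested, and 1 with values raised to log2 5, where Clec10a was at 0.93. The difference of genotype effects as labelled had 3 called, and 3 to 4 with each array left out. The fourth was Clec10a, at 1.03 without array 2 of wild-type marrow (limma, adjusted p = 0.0073), against 0.43 without array 1 and 0.73 with all arrays. Without array 2 its marrow genotype difference turned to -0.18 (limma, adjusted p = 0.53), in a range of -0.18 to 0.43 with each array left out. As the mean of its probe sets, Clec4a2 was at 0.088 in wild-type tumor against marrow (limma, adjusted p = 0.149) in place of -0.15. Of 590 values of single receptors under alternatives, 586 kept their direction and their side of the threshold. Many could not change direction, since other filters, the fit of every probe set, the replicate block and averaged arrays leave the pool means unchanged. A left-out array changes only the log2 differences that use its pool. With the replicate number as a block the counts were 1, 2, 2, 6 and 3, as without it, and deviations of same-numbered arrays correlated at -0.01 to 0.06, so the numbers do not pair the arrays. Leaving out the pool labelled HDC-KO tumor, an alternative chosen after seeing the data, gave 1 called between marrow genotypes and 2 between wild-type tissues. Signal near background limits Clec10a in marrow and Clec4n in HDC-KO marrow, whose folds are bounds.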
